A study of Mus musculus with 6 samples.

Results

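The chromosome 10 neighbours of Myb are the genes whose start lies within 20 Mb of the start of Myb on that mouse chromosome, in the RefSeq annotation of GRCm38. Here a gene's start is its lowest coordinate whatever its strand, so for a gene on the minus strand it is the 3′ end, and distances are between such starts. Myb itself and Perp were left out. RefSeq places 508 further genes there, 195 of them protein-coding. Of the 508, 188 had a probe set of their own on the array, and 126 passed the filter on dim genes, of 13956 genes that passed it in all. The 126 members divide evenly, with 63 on the side of lower chromosome coordinates and 63 on the side of higher coordinates. Gene expression was measured on 6 Affymetrix arrays, with total RNA from 3 MYB knockdown mice and 3 wild type mice. All mice were males of the C57BL6 strain, 4 weeks old, and their bone marrow was sorted by flow cytometry for cells with Kit and CD11b and low lineage markers, which the labels call K11bL cells. The labels give neither the means of the knockdown nor the cells in which it acts.

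MYB is a transcription factor that haematopoietic progenitors need in order to proliferate and to choose a lineage. Its gene lies between Ahi1 and Hbs1l, and in mouse and human the stretch between MYB and HBS1L holds enhancers that act on MYB. Ahi1 got its name as a helper integration site of Abelson leukaemia virus, and other retroviral insertions of leukaemias lie around Myb. Farther out, the region holds the receptor chains Ifngr1 and Il20ra, the ubiquitin-editing enzyme Tnfaip3, a cluster of trace amine receptors and, at its low end, the oestrogen receptor gene Esr1. The comparison asked how these genes differed between knockdown and wild type cells, and how the differences lay along the chromosome.

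Between the groups 24 of the 126 members passed the test, 10 of them higher and 14 lower in knockdown cells. The promoters of 5 of these are shown because they carry the contrasts described next: Ifngr1, the member of smallest p; Il20ra, the next called member, of opposite direction and 0.120 Mb away; Pde7b and Sgk1, the called members nearest to Myb on the lower and the higher side; and Dse, the largest rise. Each sequence runs 5′ to 3′ along the gene's strand and comes from RefSeq on build GRCm38.p6. It goes from 250 bases before the transcript start of its promoter entry to 50 bases after it. For Il20ra, on the plus strand, that entry is not at the 5′ end of the gene. Its window begins at 19712337, inside the gene, which RefSeq starts at 19711673. Capitals mark matches to AACGG or AACTG, the core letters of the MYB motif, read on both strands. Of the 126 members, 105 had a promoter in the table; Marcks, the largest fall, was not among them. Sgk1 has 6 entries, and the entry at the far 5′ end of the gene is given.
Ifngr1 promoter, chr10:19591699-19591998, + strand: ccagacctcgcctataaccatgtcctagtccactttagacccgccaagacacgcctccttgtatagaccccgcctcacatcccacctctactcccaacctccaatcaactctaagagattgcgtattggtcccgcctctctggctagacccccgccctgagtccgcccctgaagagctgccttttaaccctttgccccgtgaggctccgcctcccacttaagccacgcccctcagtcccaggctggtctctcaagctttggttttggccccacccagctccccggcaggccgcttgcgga
Il20ra promoter, chr10:19712337-19712636, + strand: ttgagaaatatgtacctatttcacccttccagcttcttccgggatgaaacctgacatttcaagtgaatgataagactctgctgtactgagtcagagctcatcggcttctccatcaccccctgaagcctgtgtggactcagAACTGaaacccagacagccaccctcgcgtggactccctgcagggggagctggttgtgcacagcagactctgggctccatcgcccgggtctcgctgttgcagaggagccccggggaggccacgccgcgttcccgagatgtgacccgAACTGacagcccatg
Pde7b promoter, chr10:20548279-20548578, - strand: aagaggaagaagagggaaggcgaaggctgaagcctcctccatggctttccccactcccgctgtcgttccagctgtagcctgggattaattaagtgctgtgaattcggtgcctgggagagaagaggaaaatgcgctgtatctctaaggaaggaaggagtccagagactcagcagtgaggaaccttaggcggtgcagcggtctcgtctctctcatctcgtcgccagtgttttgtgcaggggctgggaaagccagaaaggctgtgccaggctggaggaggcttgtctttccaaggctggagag
Sgk1 promoter, chr10:21881934-21882233, + strand: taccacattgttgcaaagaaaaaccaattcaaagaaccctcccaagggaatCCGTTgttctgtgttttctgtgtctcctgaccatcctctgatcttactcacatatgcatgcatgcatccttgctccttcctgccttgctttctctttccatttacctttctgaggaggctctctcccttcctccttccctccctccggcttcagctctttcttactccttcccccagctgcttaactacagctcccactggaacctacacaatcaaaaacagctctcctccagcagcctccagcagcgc
Dse promoter, chr10:34207186-34207485, - strand: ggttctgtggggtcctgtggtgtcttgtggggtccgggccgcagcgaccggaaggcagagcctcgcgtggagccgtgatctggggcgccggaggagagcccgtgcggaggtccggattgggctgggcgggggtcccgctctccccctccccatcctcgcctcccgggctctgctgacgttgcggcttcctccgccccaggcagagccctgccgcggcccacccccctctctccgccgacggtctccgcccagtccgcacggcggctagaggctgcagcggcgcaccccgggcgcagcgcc

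The Il20ra window, which lies inside the gene, held AACTG at 2 places, and the Sgk1 window held AACGG once, on the opposite strand. The windows of Ifngr1, Pde7b and Dse held neither run of letters. Over all entries, 44.7% of the 132 promoters of members held a match, against 55.1% of the 32851 promoters of 300 bases in the table. Among called members it was 4 of the 11 promoters of genes that rose and 12 of the 23 promoters of genes that fell. These are entries and not genes: the 11 belong to 10 genes and the 23 to 13 genes, with 6 from Sgk1. A match is a string of letters and does not show binding.

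The array values are log2 intensities as deposited by the authors, and differences are knockdown minus wild type on that scale, each with its standard error from the fit (SE). A gene was called at an adjusted p under 0.05 in limma, fitted on all 13956 genes with the Benjamini-Hochberg adjustment. The array medians lay between 5.87 and 5.99. Knockdown mouse 3 stood apart, with correlations over all probe sets of 0.977 and 0.984 with knockdown mice 1 and 2, where those 2 had 0.994 and the wild type arrays 0.993 to 0.995. Of the gate markers, Kit averaged 10.22 in knockdown and 10.50 in wild type (adjusted p = 0.06), and Itgam, which encodes CD11b, 9.45 and 9.84 (adjusted p = 0.202; limma, n = 3 each). Markers of other marrow cells differed between the groups. Of 4 eosinophil markers 3 fell, and their summed log2 values were 23.2 to 26.6 in knockdown and 33.8 to 35.2 in wild type. Of 6 basophil and mast cell markers 4 fell and 2 rose (sums of 49.0 to 50.7 in knockdown and 54.9 to 57.9 in wild type). Of 6 markers of mature neutrophils 4 fell (56.2 to 63.1 in knockdown and 67.9 to 70.5 in wild type). The 3 megakaryocyte markers rose (27.6 to 28.5 in knockdown and 21.5 to 22.0 in wild type). Of 6 markers of myeloid progenitors 5 fell and 1 rose (62.8 to 63.6 in knockdown and 70.3 to 71.1 in wild type). Monocyte markers had 1 call among 4, B lymphoid markers 2 among 4, and T and NK markers 2 among 3, and the 2 erythroid markers, Epor and Klf1, were not called. The part of these shifts in the values of the members was not tested. In sorted bulk cells, fewer cells of a type and less RNA per cell cannot be told apart.

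Myb, the reference point of the region, had 11.26, 11.08 and 11.14 in knockdown mice, against 11.47, 11.46 and 11.46 in wild type mice. The difference of Myb, the knocked-down gene, was -0.30 ± 0.06 (SE, adjusted p = 0.0196), with 0.074 after median centring and 0.0662 without the trend in eBayes, and it was lower in 3 of 3 knockdown mice. Its call was lost when any wild type mouse or knockdown mouse 2 was left out (up to 0.0967). Perp, the gene left out 2.28 Mb away, rose by 3.47 ± 0.18 (SE). No member differed as much as Perp: the called members lay between -1.25 and 0.99. The 24 calls are 19.0% of the members, beside 11.6% of all genes tested. The 10 rises are 7.94% of the members (6.12% over all genes) and the 14 falls 11.1% (5.48% over all genes). With Perp the count is 25 of 127. Marcks, Esr1 and Syne1, all lower, were the 3 called members that changed at least 2-fold, which is 2.38% of the members beside 2.36% of all genes. The groups did not overlap for 54 members, 42.9%, beside 34.3% over all genes. The median difference was -0.002 over the members and 0.017 over all genes, and the median absolute difference 0.192 and 0.142. With the arrays centred on their medians, which moved the difference of every gene up by 0.075, 16 members rose and 10 fell. These are 20.6% of the members, beside 14.5% of all genes with that centring.

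**Figure D1:**
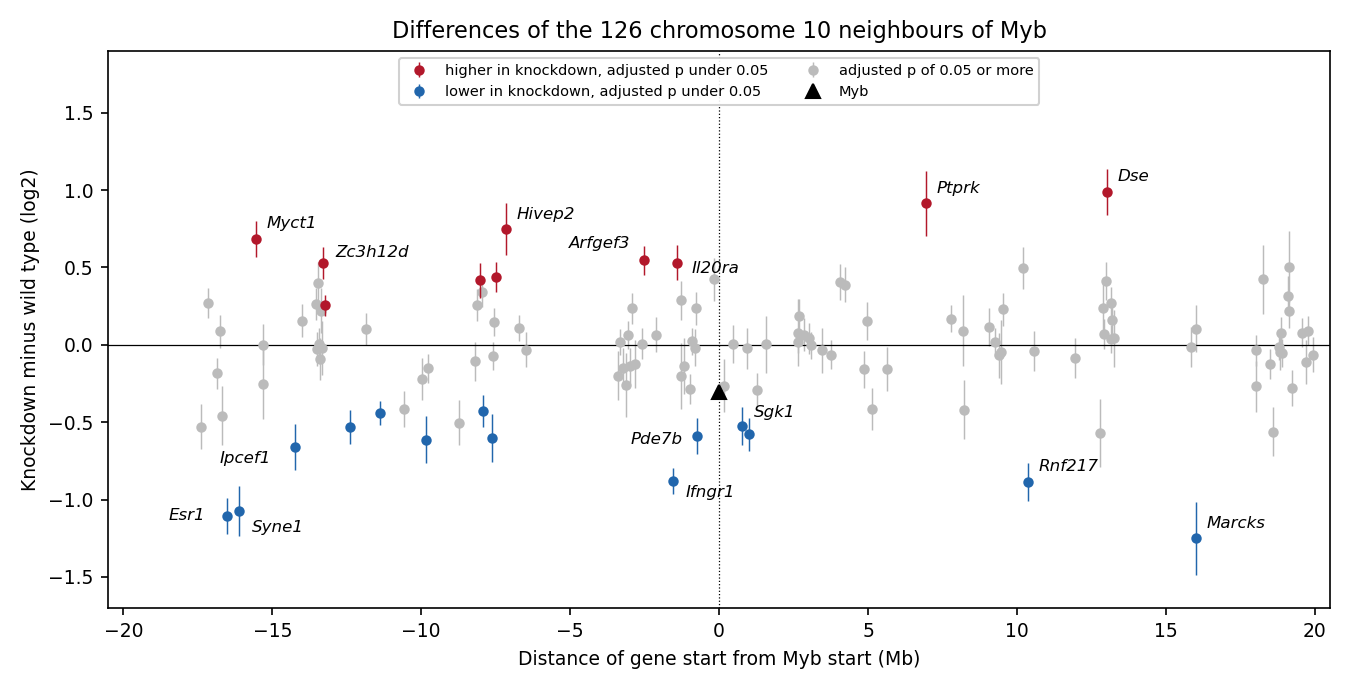
Difference between knockdown and wild type (log2, points with SE bars) for the 126 members against the distance of the gene start from the start of Myb in Mb, negative towards lower coordinates. Red points are the 10 members higher in knockdown, blue points the 14 lower and grey points those not called; the falls reach -1.25 at Marcks and the rises 0.99 at Dse, both more than 10 Mb from Myb.

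The genes next to Myb are described first. Ahi1, a protein of the primary cilium, starts 0.17 Mb below Myb and had 7.18, 7.05 and 6.67 in knockdown mice, against 6.59, 6.53 and 6.52 in wild type mice. All 3 knockdown values lay above the wild type values, but the difference of 0.42 ± 0.14 (SE) had an adjusted p of 0.0919 (limma, n = 3 each). Hbs1l, a GTPase that helps to release stalled ribosomes, starts 0.17 Mb above Myb and had 9.90, 9.85 and 9.22 in knockdown mice, against 9.96, 9.92 and 9.88 in wild type mice. Its groups overlapped (difference -0.26 ± 0.17, adjusted p = 0.395), and the low value was that of knockdown mouse 3. A second probe set of Hbs1l differed by -0.15. The adjusted p of Ahi1 was under 0.05 after quantile normalization and after median centring.

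Pde7b, a phosphodiesterase that degrades cyclic AMP, is on the minus strand and starts, at its 3′ end, 0.73 Mb below Myb; by these distances it is the nearest member that passed the test. It had 6.04, 5.71 and 5.76 in knockdown mice, against 6.51, 6.40 and 6.38 in wild type mice. The groups did not overlap, and Pde7b fell by 0.59 ± 0.11 (SE, adjusted p = 0.0136). Sgk1, a serine-threonine kinase induced by serum and glucocorticoids, starts 0.76 Mb above Myb, with 6.62, 6.47 and 6.35 in knockdown mice, against 7.20, 6.88 and 6.93 in wild type mice. Every knockdown value was below every wild type value, and Sgk1 fell by 0.52 ± 0.12 (adjusted p = 0.0313). E030030I06Rik, a protein-coding gene with a clone name, starts 0.99 Mb above Myb and fell by 0.58 ± 0.11 (adjusted p = 0.0116). The calls of Pde7b and Sgk1 were lost when any wild type mouse or knockdown mouse 2 was left out (adjusted p up to 0.0772 and 0.135), and that of E030030I06Rik without wild type mouse 1, 2 or 3 (up to 0.0692). Sgk1 had an adjusted p of 0.0551 after median centring.

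The remaining members within 1 Mb were not called. Bclaf1, a nuclear factor of transcription and RNA processing, averaged 9.90 ± 0.23 in knockdown and 9.92 ± 0.06 in wild type (SD, n = 3 each). Mtfr2, a regulator of mitochondrial fission, averaged 9.58 ± 0.16 in knockdown and 9.34 ± 0.08 in wild type, with an adjusted p of 0.208 in limma. Rpl32l, a gene like that of ribosomal protein L32, differed by 0.02 ± 0.09 (SE), and whether its probes separate it from other L32 sequences was not tested. The clone-named genes 1700020N01Rik and 4930444G20Rik differed by 0.01 and -0.02. After median centring the differences of Bclaf1 and 4930444G20Rik turned to 0.06 and 0.05. Map7, a microtubule-associated protein named after its values were seen, differed by -0.29 ± 0.10 (adjusted p = 0.0962) without overlap of the groups. Of the 11 members within 1 Mb of Myb, 3 were thus called (27.3%, beside 11.6% of all genes). All 3 were lower (beside 5.48% of all genes), and a share of 11 members moves far with each gene.

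**Figure D2:**
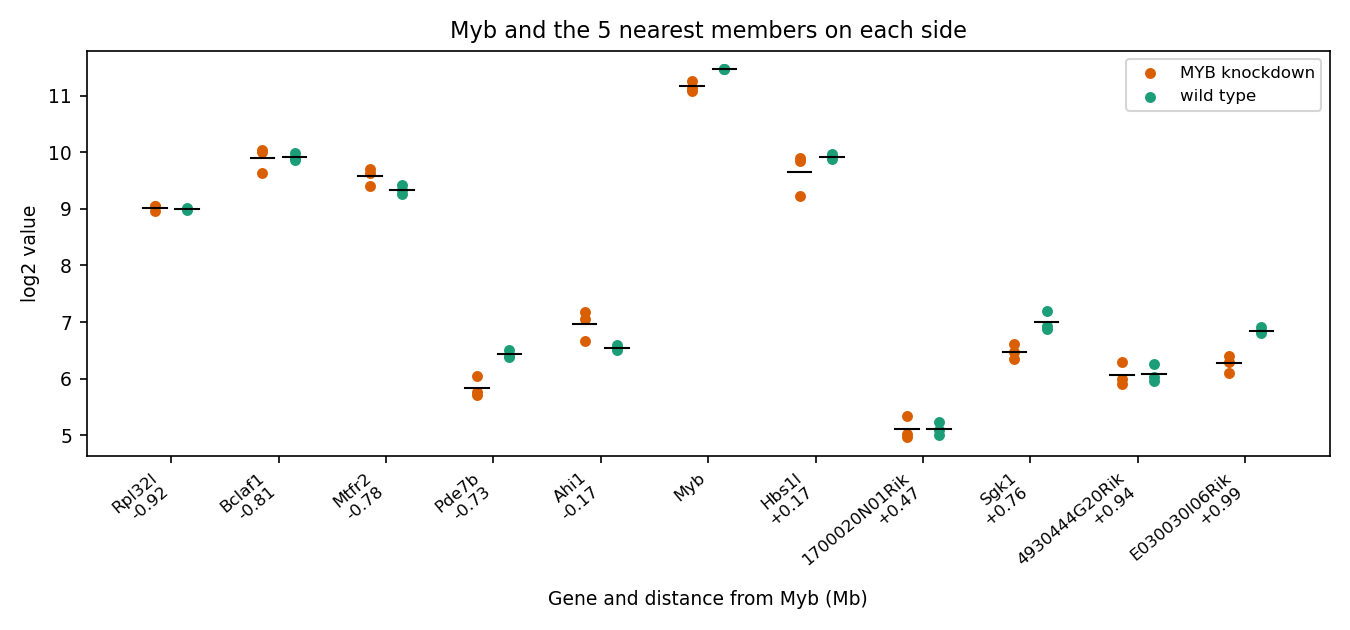
log2 values of Myb and of the 5 nearest members on each side, in chromosome order with the distance from Myb in Mb under each name; points are mice (orange knockdown, left; green wild type, right) and bars are means of 3. Pde7b, Sgk1 and E030030I06Rik lie lower in all 3 knockdown mice, while Hbs1l and Bclaf1 overlap between the groups.

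Receptors and immune signalling genes gave the strongest test result of the region. Ifngr1, the ligand-binding chain of the interferon gamma receptor, starts 1.53 Mb below Myb and had 10.39, 10.19 and 10.19 in knockdown mice, against 11.22, 11.06 and 11.13 in wild type mice. The groups were clearly apart, and Ifngr1 fell by 0.88 ± 0.08 (1.84-fold, adjusted p = 0.000454), with adjusted p between 8.08e-05 and 0.00567 when any 1 array was left out. Il20ra, a chain of the receptors for IL-20 and related cytokines, is the next member past the filter and moved the other way. It had 5.47, 5.61 and 5.24 in knockdown mice, against 4.82, 4.93 and 4.98 in wild type mice, and rose by 0.53 ± 0.11 (adjusted p = 0.0194). Its wild type mean of 4.91 lies under the filter of 5.11, and Il20ra passed that filter on the mean of all arrays through its knockdown mean of 5.44, so its difference is given as a description. Without Il20ra, 23 of 125 members were called, 9 higher and 14 lower. The call was kept only without knockdown mouse 3 when 1 array was left out; without any other array the adjusted p was up to 0.105. Between these 2 receptor genes lies Il22ra2, a soluble binding protein of IL-22, which did not pass the filter.

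The other calls on the immune signalling list were rises farther out on the lower side. Myct1, a target gene of MYC expressed in endothelium and stem cells, had 7.96, 7.84 and 7.80 in knockdown mice, against 7.17, 7.02 and 7.36 in wild type mice, and rose by 0.68 ± 0.12 (adjusted p = 0.00776), a call kept in each fit with 1 array left out. Zc3h12d, an RNase of the Regnase family that restrains inflammatory transcripts, rose by 0.53 ± 0.10 (adjusted p = 0.014). Tab2, an adaptor of the kinase TAK1 in NF-kappa-B signalling, lies beside it and rose by 0.25 ± 0.07 (adjusted p = 0.0427). Both calls were lost when any wild type mouse or knockdown mouse 2 was left out (up to 0.0847 for Zc3h12d and 0.17 for Tab2), and Tab2 was also lost without knockdown mouse 1 and with quantile normalization (0.0521), no filter (0.0612) or no trend in eBayes (0.0924). Of the 9 members on the immune signalling list, 4 were called higher (44.4%, beside 6.12% of all genes) and 1 lower (11.1%, beside 5.48%), with a median of 0.11. These 4 include Il20ra, and Myct1, which is on the list although it is not known as an immune signalling gene. Lists of this size move far in percent with each gene. Tnfaip3, which edits ubiquitin chains to end NF-kappa-B signalling, differed by 0.06 ± 0.11 (adjusted p = 0.8; named after its values were seen).

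On the list of kinases, phosphatases and other genes of second messengers 8 of 13 members were not called, 4 fell (30.8%, beside 5.48% of all genes) and 1 rose (7.69%, beside 6.12%), with a median of -0.19. Beside Pde7b and Sgk1, the falls were Sash1, a scaffold protein of signalling, by 0.53 ± 0.11 (adjusted p = 0.0182) and Phactr2, a regulator of phosphatase and actin, by 0.43 ± 0.11 (adjusted p = 0.0355; named after its values were seen). A second, dimmer probe set of Sash1 differed by -0.03, and with the mean of its probe sets the adjusted p was 0.0718. The rise was that of Ptprk, a receptor tyrosine phosphatase 6.95 Mb above Myb, with 6.15, 6.55 and 5.83 in knockdown mice, against 4.91, 5.38 and 5.50 in wild type mice. Its groups did not overlap but came close, and it rose by 0.91 ± 0.21 (1.88-fold, adjusted p = 0.0264). Sash1 and Phactr2 lost their calls when any wild type mouse or knockdown mouse 2 was left out (up to 0.0988 and 0.157), and Ptprk did so without knockdown mouse 2, wild type mouse 1 or wild type mouse 2 (up to 0.107). Phactr2 was also lost after median centring and with the replicate number as a block.

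Among the 15 members on the list of transcription and chromatin, 1 fell and 2 rose, beside 5.48% and 6.12% of all genes. Esr1, oestrogen receptor alpha, starts 16.51 Mb below Myb and had 6.97, 6.82 and 6.64 in knockdown mice, against 7.83, 8.02 and 7.91 in wild type mice. The knockdown mice lay far below, and Esr1 fell by 1.11 ± 0.12 (2.15-fold, adjusted p = 0.000794), at most 0.0084 with any 1 array left out. Hivep2, a large zinc finger protein that binds enhancers, had 6.73, 6.71 and 6.12 in knockdown mice, against 5.69, 5.72 and 5.91 in wild type mice, and rose by 0.75 ± 0.17 (adjusted p = 0.026). Its rise was smallest in knockdown mouse 3, and without that mouse it was 0.95. Plagl1, an imprinted zinc finger gene, rose by 0.42 ± 0.11 (adjusted p = 0.0485). When 1 array was left out, Hivep2 and Plagl1 were called only without knockdown mouse 3 (otherwise up to 0.118 and 0.2), and Plagl1 had 0.0613 with no filter, 0.0517 without the trend and 0.0503 with robust eBayes. Rev3l, the catalytic subunit of DNA polymerase zeta, differed by -0.56 ± 0.16 (adjusted p = 0.0539).

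Of 20 members on the list of trafficking, adhesion and cytoskeleton 3 were lower (15%, beside 5.48% of all genes) and 0 higher (beside 6.12%). The count of 0 is from limma with adjustment, and 3 members were higher and 6 lower at an unadjusted p under 0.05. The median difference of this list was -0.06. Marcks, a substrate of protein kinase C that binds actin and the plasma membrane, had 7.12, 6.22 and 6.15 in knockdown mice, against 7.80, 7.74 and 7.71 in wild type mice. Knockdown mouse 1 was nearer to wild type than the other two, and Marcks fell by 1.25 ± 0.23 (2.38-fold, adjusted p = 0.0117). Syne1, the nuclear envelope protein nesprin-1 and next neighbour of Esr1 among the members, fell by 1.07 ± 0.16 (2.11-fold, adjusted p = 0.00424), and its second probe set differed by -1.25. Stxbp5, the syntaxin-binding protein tomosyn, fell by 0.44 ± 0.08 (adjusted p = 0.0083). The call of Syne1 was kept without any 1 array, that of Marcks was lost without wild type mouse 1 or 2 (up to 0.0615) and that of Stxbp5 without wild type mouse 1, 2 or 3 (up to 0.0587). Rab32, a GTPase of lysosome-related organelles, differed by -0.41 ± 0.12 (adjusted p = 0.0585).

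Of 12 members on the list of metabolism 1 rose and 1 fell (8.33% each, beside 6.12% and 5.48% of all genes). Aig1, a hydrolase of fatty acid esters, rose by 0.44 ± 0.10 (adjusted p = 0.0251), and Fuca2, a fucosidase, fell by 0.60 ± 0.15 (adjusted p = 0.0405). Both calls were lost when any wild type mouse or knockdown mouse 2 was left out (up to 0.133 and 0.175), that of Aig1 also with the replicate block (0.0598) and that of Fuca2 after median centring (0.0637). On the list of RNA and translation 1 of 11 members rose (9.09%, beside 6.12% of all genes). This only call of the list was Dse, an epimerase of dermatan sulfate that was put on it in error. Dse, 13.03 Mb above Myb, had 7.26, 7.07 and 6.78 in knockdown mice, against 6.19, 6.11 and 5.85 in wild type mice, and rose by 0.99 ± 0.15 (1.98-fold, adjusted p = 0.00416), with at most 0.0236 when 1 array was left out. The ribosome assembly factor Ltv1 (difference 0.34 ± 0.10, adjusted p = 0.0562), the nucleoporin Nup43 (0.40 ± 0.14, 0.11) and the splicing factor Sf3b5 (0.25 ± 0.10, 0.165) were not called. From the list of metabolism, Mthfd1l, a mitochondrial folate enzyme (0.27 ± 0.10, 0.127), and Rpf2 (0.32 ± 0.13, 0.153) were not called either. Rpf2 is on that list although it is a factor of large subunit assembly.

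The called members outside these lists were Rnf217, Ipcef1, Fbxo30, Arfgef3 and E030030I06Rik. Rnf217, a RING-type ubiquitin ligase, had 5.52, 5.23 and 5.62 in knockdown mice, against 6.44, 6.28 and 6.30 in wild type mice, and fell by 0.88 ± 0.12 (1.85-fold, adjusted p = 0.00277). Arfgef3, a relative of the exchange factors for ARF GTPases, had 6.49, 6.60 and 6.50 in knockdown mice, against 5.96, 5.95 and 6.04 in wild type mice, and rose by 0.54 ± 0.09 (adjusted p = 0.00695). These 2 calls were kept without any 1 array. Ipcef1, which binds cytohesin exchange factors, fell by 0.66 ± 0.15 (adjusted p = 0.0264), and Fbxo30, an F-box protein of ubiquitin ligases, by 0.61 ± 0.15 (adjusted p = 0.035). Leaving out any wild type mouse, or knockdown mouse 2, ended both calls (up to 0.123 and 0.151), and Fbxo30 had 0.0507 after median centring.

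**Figure D3:**
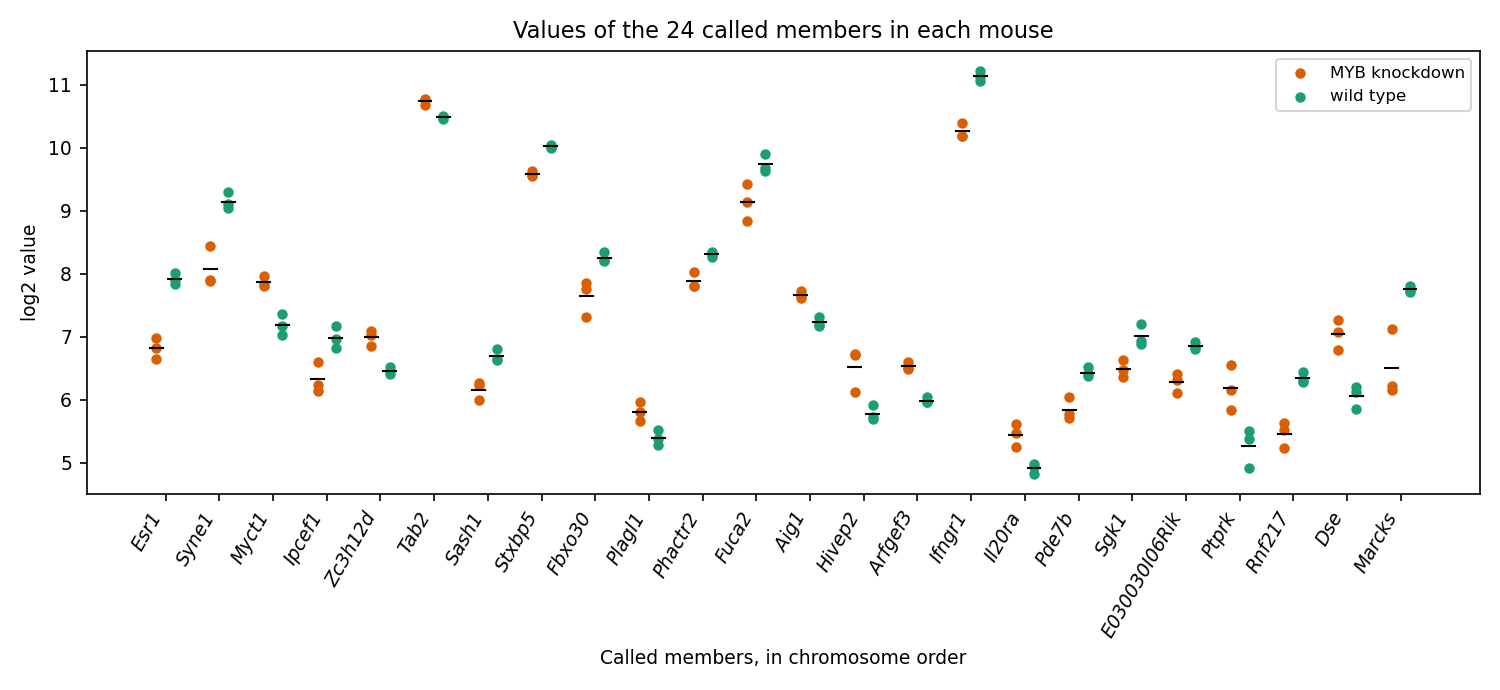
log2 values of the 24 called members in each mouse, in chromosome order from lower to higher coordinates; points are mice (orange knockdown, left; green wild type, right) and bars are means of 3. For every called member the 3 knockdown values lie on 1 side of the 3 wild type values, with the widest knockdown spread at Marcks (6.15 to 7.12).

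The calls were not spread evenly along the region. On the lower side 18 of 63 members were called, 8 higher and 10 lower, which is 28.6%. The 18 include Il20ra, which passed the filter only through its knockdown mean. On the higher side 6 of 63 were called, 2 higher and 4 lower, which is 9.52%. The median absolute difference was 0.254 on the lower side and 0.127 on the higher side, beside 0.142 over all genes. The sides also differed in median log2 level, with 7.72 on the lower and 7.08 on the higher side (7.54 over all genes). The part of level in the contrast was not tested. The rest of chromosome 10 had 63 of 548 genes called (11.5%), the other chromosomes 1529 of 13241 (11.5%), and the other autosomes taken singly between 8.05% and 15.9%. Those autosomes hold 323 to 1249 genes each, and the share of a set of 63 varies more. No other stretch of that size was counted. The counts per side were added after the data were seen. The lower side held the larger share of its members called in 21 of 21 alternative settings, but these reuse the same 6 arrays. Gene starts by strand only repeated the main counts, so the 21 settings are not separate support for the contrast. Without wild type mouse 3 it was 5 members on the lower side and 4 on the higher side. These shares are a description; genes on the same arrays vary together, and no test over the members was made.

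Nearness to Myb did not order the differences. Of the members, 3 of 11 within 1 Mb were called, 3 of 30 between 1 and 5 Mb, 7 of 27 between 5 and 10 Mb and 11 of 58 between 10 and 20 Mb. Across the 126 genes the absolute difference and the distance had a Spearman rho of 0.05, with 0.14 on the lower side and 0.08 on the higher side (63 genes each), all from the same 6 arrays. The 16 members from Gm10825 to Arhgap18, 1.28 to 5.65 Mb above Myb, held 0 calls by limma (4 with an unadjusted p under 0.05), and so did the 11 members from Adgrg6 to Hebp2, 6.72 to 2.58 Mb below it (1 such p). The 18 members from 5930403N24Rik to Gpr6 at the far end of the higher side held 0 as well (3 such p). The genes at the ends of these stretches were named after their values were seen. Among all 102 members not called, 24 had an unadjusted p under 0.05.

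**Figure D4:**
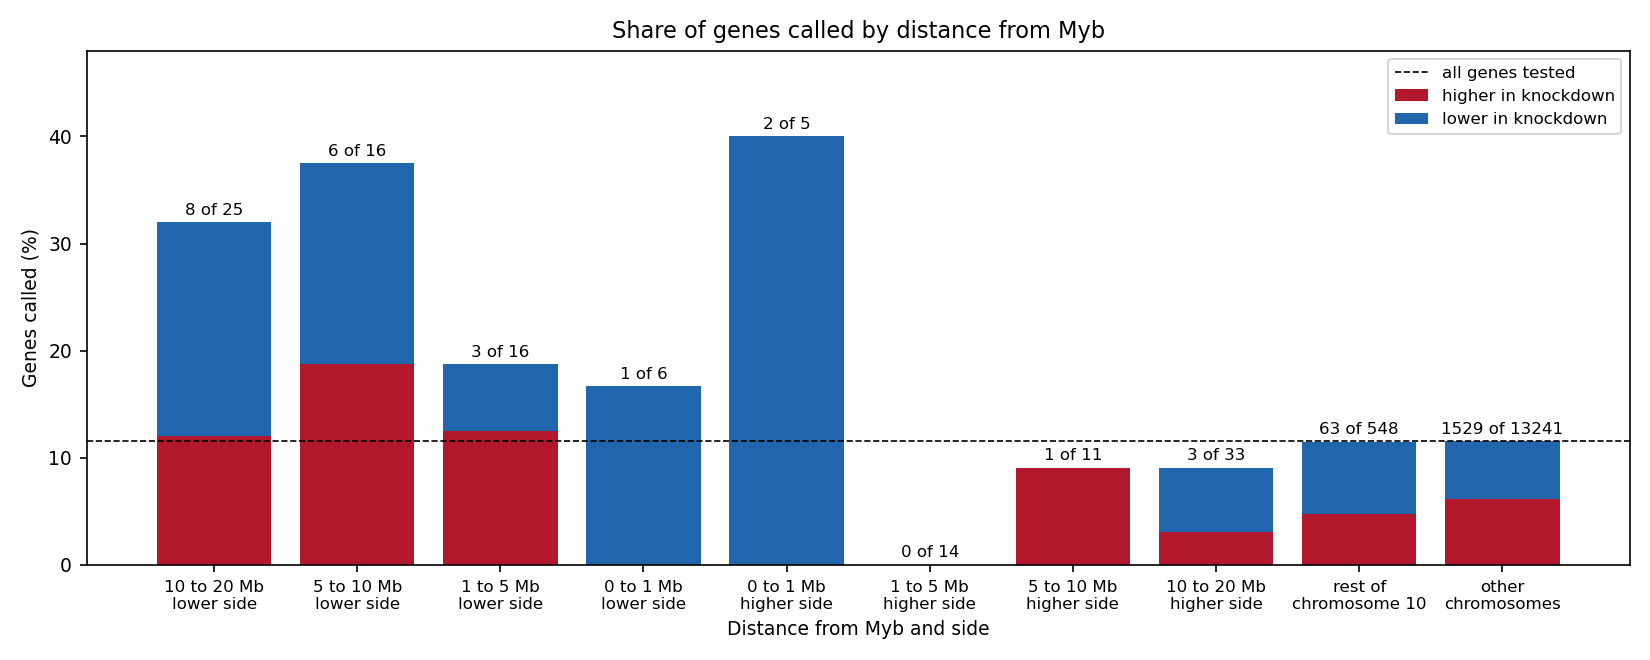
Share of genes called (%) by distance from Myb and side, with the rest of chromosome 10 and the other chromosomes at the right; red is higher and blue lower in knockdown, numbers give called of tested genes, and the dashed line is the share over all genes (11.6%). The 5 to 10 Mb class of the lower side has 6 of 16 called, the 1 to 5 Mb class of the higher side 0 of 14.

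Some called members were neighbours among the members, with directions that did not always match. Of 125 pairs of adjacent members both were called in 7, in the same direction in 4 and in opposite directions in 3. All 7 pairs lay on the lower side, where the share called was 28.6%, and whether calls cluster beyond that share was not tested. The runs of 3 were Esr1, Syne1 and Myct1, where the first pair fell and Myct1 rose, and Zc3h12d, Tab2 and Sash1, where the first pair rose and Sash1 fell. The runs of 2 were Phactr2 and Fuca2, both lower, Aig1 and Hivep2, both higher, and Ifngr1 and Il20ra, which differed in direction. Il20ra passed the filter only through its knockdown mean. Without it the pair with Ifngr1 would not count, as the next member, Slc35d3, was not called.

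**Figure D5:**
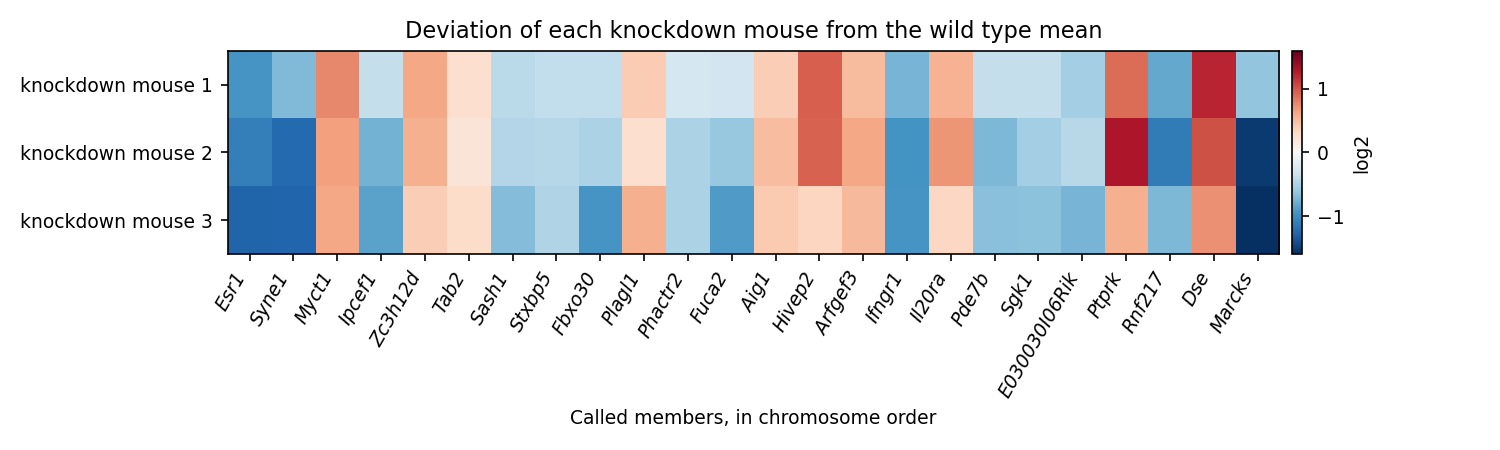
Deviation of each knockdown mouse from the mean of the 3 wild type mice (log2, blue lower and red higher) for the 24 called members in chromosome order. Each member has the same colour in all 3 mice, and Marcks is palest in knockdown mouse 1.

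The 3 knockdown mice did not weigh equally in the counts. The median absolute deviation of the members from the wild type mean was 0.233, 0.180 and 0.277 in knockdown mice 1, 2 and 3, beside 0.172, 0.147 and 0.245 over all genes. Without knockdown mouse 3, 53 of 125 members were called, 30 higher and 23 lower, beside 27.2% of all genes. Without knockdown mouse 1 or 2 it was 23 and 10 members (18.5% and 8%, beside 11.4% and 6.51% of all genes). Without wild type mouse 1, 2 or 3 it was 8, 8 and 9 members. These are 6.30%, 6.35% and 7.14%, beside 4.75%, 4.94% and 5.35% of all genes. In each of these fits the share of members called was above that of all genes. The members called in all 6 such fits numbered 7: Esr1, Syne1, Myct1, Arfgef3, Ifngr1, Rnf217 and Dse. Leaving out an array also takes away a degree of freedom, and its share in the lost calls was not tested.

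The filter removed 62 measured members, among them 12 of 13 measured trace amine receptors, most of which act as olfactory receptors in mouse; Taar5, the exception, had 5.35 ± 0.14 in knockdown and 5.29 ± 0.12 in wild type (SD, n = 3 each). Closest to the filter of 5.11 were H60b (5.03) and Arg1 (5.07) outside it and 1700020N01Rik (5.11) and Adgrg6 (5.13) inside. When no genes were filtered, 3 of the 62 dim members passed limma's test, where 7.39% of all genes in that fit did. These 3 are named here after their values were seen. H60b, a ligand of the activating receptor NKG2D, starts 1.15 Mb above Myb and had 5.67, 5.52 and 5.40 in knockdown mice, against 4.36, 4.48 and 4.75 in wild type mice, a rise by 1.00 ± 0.12 (adjusted p = 0.0013). Il22ra2 had 4.46, 4.43 and 4.34 in knockdown mice, against 5.21, 5.46 and 5.01 in wild type mice, and fell by 0.82 ± 0.12 (adjusted p = 0.00334). Adgb, a globin-like protein, fell by 0.54 ± 0.09 (adjusted p = 0.00657). With wild type mouse 1 or 2 left out, H60b passed the filter and was called. Values this dim are close to the lower quartiles of the arrays (4.46 to 4.58), so the sizes of these differences are uncertain.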

How the data were processed

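Gene expression was measured on 6 Affymetrix arrays, 1 per mouse (3 MYB knockdown, 3 wild type). The authors deposited log2 values, 1 per probe set and array. The tools listed in the submitters' processing notes are Affymetrix Expression Console and limma. Their versions and the steps of background correction and normalization were not found in the labels or file headers. The number of arrays limits the precision. Of 35556 probe sets, 21789 had 1 gene symbol, and 21698 of these were matched by gene number to RefSeq (GRCm38.p6), which gave distances from Myb. For each gene the probe set of the highest mean was used, and genes with a mean in the lowest 30% were left out. The groups were compared in limma 3.58.1 (R 4.3.3, lmFit, eBayes with trend, no covariates) on all 13956 genes. The fit was also run on simulated data with independent normal values for each gene. That run does not cover genes that vary together or a mouse that stands apart. Each array is a mouse of its own, so p-values measure the spread between animals.

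The members and lists were chosen with earlier results of these data known. Named are the 5 nearest members per side, all calls within 5 Mb, the 12 largest rises and falls, and from each of 7 role lists at most 4 members, those of smallest p; clone-named genes were named only among the nearest. The lists cover 81 members. Alternatives were normalization, centring, filters, probe set means, eBayes settings, array weights, thresholds, windows of 10 and 5 Mb, gene starts by strand, a replicate block and each array left out. Perp as a member and the counts per side were added after seeing the data.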

Additional observations from a re-analysis of the deposited data

How the results depend on the processing

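The share of members called was above that of all genes in 21 of 21 alternatives, all drawn from the same 6 arrays. Of 417 values of the named genes that were called 0 changed direction, but most settings could not turn it. The block, filters, eBayes settings and thresholds leave a difference as it is. With 1 array left out or with array weights it cannot turn either, as the groups of these genes do not overlap. Only normalization, centring and probe set means could turn a direction. Of 250 values of named genes not called 14 turned sign, in 5 genes with differences near 0. The counts changed with the setting. With 1 array left out the members called higher numbered 3 to 30 and those lower 4 to 23, with 5 to 30 on the lower side, 3 to 23 on the higher side and a median of -0.02 to 0.03. With the replicate block, 7 rose and 14 fell (16.7% of the members called, beside 10.5% of all genes). The block ended the calls of Aig1 (0.0598), Plagl1 (0.0696), Tab2 (0.098) and Phactr2. The mouse numbers do not pair the groups (correlations of same-numbered deviations 0.29, -0.19 and -0.08, and 2 of 6 mice closest to their own number). Array weights, whose estimation stopped short of convergence, gave 30 rises and 25 falls (31 calls on the lower side, 24 on the higher). They called 43.7% of the members, beside 28.0% of all genes. Quantile normalization gave 11 calls on the higher side, and median centring gave 16 rises and a median of 0.0729. These 2 settings called 25.4% and 20.6% of the members, beside 13.1% and 14.5% of all genes. An adjusted p of 0.1 gave 16 rises and 12 calls on the higher side (28.6% of the members called, beside 17.3% of all genes). A minimum of 1.5-fold left 4 rises, 9 falls and 9 calls on the lower side (10.3% of the members called, beside 6.56% of all genes). In a window of 10 Mb there were 6 rises and 7 falls (10 and 3 calls on the lower and higher side), and in 5 Mb 2 and 4 (4 and 2), as narrower windows hold fewer genes. The windows had 19.1% and 14.6% of their members called, beside 11.6% of all genes. Gene starts by strand left the 24 calls as they were. The cause of the other changes was not tested. On arrays, dim probe sets understate changes, which limits Il20ra, Plagl1, Ptprk and the genes under the filter.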
